A study of Homo sapiens with 9 samples.

Results

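The replication-independent histone variants are 9 genes whose mRNAs, in most cases, supply chromatin with histones outside the burst of synthesis that accompanies DNA replication. They were chosen by symbol from a table of 56541 genes of which 39048 had a symbol: H2AZ1, H2AZ2, H2AX, H2AJ, MACROH2A1 and MACROH2A2 in the H2A family, H3-3A and H3-3B in the H3 family, and H1-10 among the linker histones. All 9 symbols were found, each on 1 gene.

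The measurements came from MOLM-13, a human acute myeloid leukaemia cell line, as 9 libraries, 3 per group. Cells carrying a control hairpin gave the shCONTROL RNA-seq, cells whose hairpin targets BCLAF1 (a protein of the nucleus that binds RNA) gave the shBCLAF1 RNA-seq, and the RIP group was RNA that co-precipitated with BCLAF1 from shCONTROL cells. Cells of all 3 groups, the controls included, had received doxycycline at 200 ng/µL for 4 days. The labels name no mock precipitation, do not say how many hairpin sequences were used, and do not state that replicates came from separate cultures, so the p-values measure the spread between these libraries, which may be technical.

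Most histones are encoded by clustered genes that are transcribed in S phase and whose mRNAs end in a stem-loop instead of a poly(A) tail. Variant genes such as those described here lie outside the main clusters, give polyadenylated mRNAs in most cases, and are expressed through the cell cycle, so that their products can replace the S-phase histones at promoters, damaged sites and silenced domains. In dividing cells such as leukaemic blasts both supplies operate side by side.

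The 4 variant mRNAs that changed after knock-down of BCLAF1 were H2AZ1, H2AZ2, H2AJ and H1-10, and the bases just upstream of their starts are shown to place these genes and their promoter elements. Each sequence is the 250 bases before the RefSeq start in GRCh38.p14, read 5′ to 3′ on the gene's own strand. Capitals mark CCAAT on either strand (ATTGG where it lies on the other) and TATAAA. The windows lie at chr4:99950276-99950525 (minus strand) for H2AZ1, chr7:44848088-44848337 (minus) for H2AZ2, chr12:14774155-14774404 (plus) for H2AJ and chr3:129316287-129316536 (minus) for H1-10.
H2AZ1: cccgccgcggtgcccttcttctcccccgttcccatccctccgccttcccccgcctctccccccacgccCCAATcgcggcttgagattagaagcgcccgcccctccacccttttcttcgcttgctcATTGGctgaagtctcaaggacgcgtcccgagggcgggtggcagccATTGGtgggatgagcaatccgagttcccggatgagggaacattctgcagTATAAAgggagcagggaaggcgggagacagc
H2AZ2: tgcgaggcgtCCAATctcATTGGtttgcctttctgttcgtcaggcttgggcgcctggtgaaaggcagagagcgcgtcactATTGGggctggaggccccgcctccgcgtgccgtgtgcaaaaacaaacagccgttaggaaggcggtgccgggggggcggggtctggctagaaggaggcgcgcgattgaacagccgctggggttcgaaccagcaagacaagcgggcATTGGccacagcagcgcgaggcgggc
H2AJ: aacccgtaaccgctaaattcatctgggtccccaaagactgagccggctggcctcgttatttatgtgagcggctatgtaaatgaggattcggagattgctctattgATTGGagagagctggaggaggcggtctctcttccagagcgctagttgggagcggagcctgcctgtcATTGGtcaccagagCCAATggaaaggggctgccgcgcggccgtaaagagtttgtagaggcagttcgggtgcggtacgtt
H1-10: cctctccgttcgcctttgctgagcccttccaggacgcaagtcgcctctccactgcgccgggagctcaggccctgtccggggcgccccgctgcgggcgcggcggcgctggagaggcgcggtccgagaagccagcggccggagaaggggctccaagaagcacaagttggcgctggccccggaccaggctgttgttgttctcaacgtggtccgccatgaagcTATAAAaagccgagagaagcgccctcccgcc

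CCAAT, the element bound by the factor NF-Y, stood 3 times in the H2AZ1 window, 4 times in that of H2AZ2, 3 times in that of H2AJ and not at all in that of H1-10. TATAAA, the TATA box, stood 31 bases before the start in both H2AZ1 and H1-10 and was not found in the windows of H2AZ2 and H2AJ. Among the other members, H2AX and H3-3B each held 4 copies of CCAAT and 1 of TATAAA, and MACROH2A2 held neither motif. H3-3A has 4 start sites in the table, whose windows held 0 or 1 CCAAT, and MACROH2A1 has 2, with 0 and 2 copies. TATAAA was likewise searched on both strands (TTTATA on the other). By this search, 32.0% of 35116 RefSeq windows of this length held at least 1 CCAAT, 9.53% held at least 2, and 10.7% held TATAAA. Of 67 windows of clustered histone genes, 86.6% held CCAAT and 65.7% held TATAAA. ATTTGCAT (or ATGCAAAT), the octamer of histone promoters, occurred in 40.3% of the clustered histone windows, in 1.63% of all windows and, among the members, in H3-3B only. CACGTG, the E-box, was in 6.34% of all windows and in none of the members'. None of these motifs contains another. These matches describe letters in a window and do not show that a factor was bound. Both H2A.Z windows held repeated CCAAT, and a link between these motifs and the changes after knock-down was not tested.

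The libraries held 25819144 to 36635268 estimated counts each, of which the 9 variants together took 0.184% to 0.188% in the control libraries, 0.185% to 0.189% after knock-down and 0.149% to 0.184% in the RIP. Levels are given as CPM (counts relative to library size, scaled by TMM) and compare 1 gene across libraries, not genes with each other. Summed levels of marker and gene lists are CPM without TMM scaling, so they are not on the scale of the levels of single genes. BCLAF1 itself stood at 312 to 328 CPM in the controls, 99.9 to 125 after knock-down and 1034 to 1143 in the RIP, so that the knock-down left 35.3% of its mRNA (log2 fold change -1.50, SE 0.085, adjusted p = 2.06e-04). The RIP libraries differed from each other more than replicates of the other groups did, with a chi-square per degree of freedom of 72.2 to 143 between RIP replicates against 15.98 to 18.9 in shCONTROL and 23.0 to 29.1 in shBCLAF1. Of the myeloid markers, CD14 was at 0 in all libraries and the summed level of the 12 genes was 2190 to 2217 CPM in the controls, 4075 to 4436 after knock-down and 1597 to 1722 in the RIP. LYZ (lysozyme) carried these shifts, at 729 ± 57.1 CPM in the controls, 2638 ± 194 after knock-down and 46.7 ± 13.1 in the RIP (SD, n = 3 for each value), and of the 11 markers tested after knock-down 3 were higher and 3 lower, with a median of -0.04. Markers of T cells reached at most 40.0 CPM in sum with CD3E, CD3G, CD2 and CD8A at 0, B cell markers at most 3.39 with MS4A1, PAX5 and CD22 at 0, and epithelial and fibroblast markers at most 3.83 with EPCAM, CDH1, COL1A1, COL1A2 and DCN at 0. Erythroid markers were at 0 in the RNA-seq libraries and summed to 1.11 to 55.2 CPM in the RIP, with HBB, ALAS2 and KLF1 at 0. The part of these markers in the results was not tested.

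**Figure D1:**
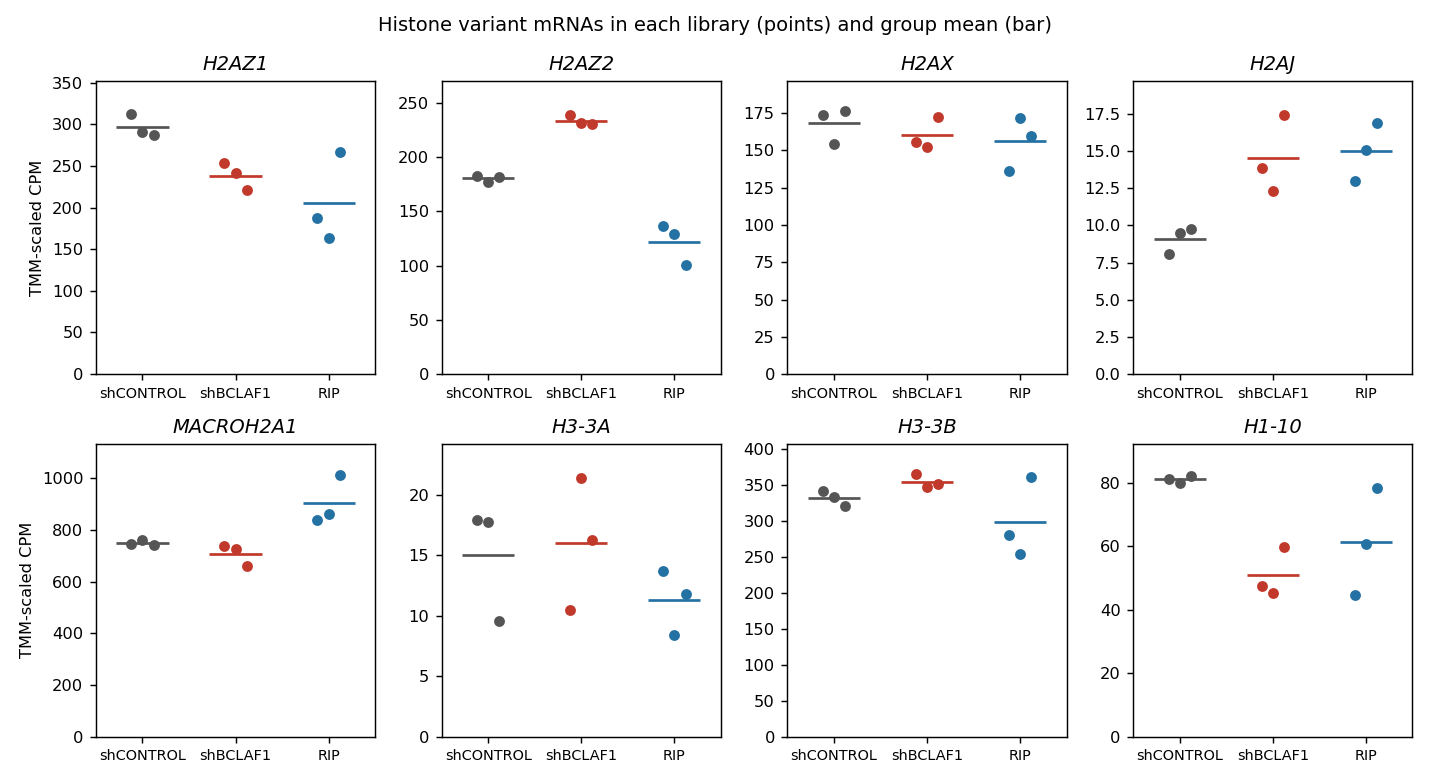
Level of each of the 8 variants above 0 (y axis, TMM-scaled CPM) in the 9 libraries (points) with the mean of each group of 3 (bars). H2AZ1, H1-10 and MACROH2A1 lay lower and H2AZ2, H2AJ and H3-3B higher in every shBCLAF1 library than in any shCONTROL library. Of these, MACROH2A1 and H3-3B did not have an adjusted p under 0.05. The share of all genes with groups apart was not counted. The H3-3A points spread widely in all 3 groups.

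The knock-down comparison set shBCLAF1 against shCONTROL. Of the 8 variants that passed the filter on low counts, H2AZ2 and H2AJ rose and H2AZ1 and H1-10 fell after knock-down, with changes between 63.1% and 160% of the control level. The other 4 (H2AX, MACROH2A1, H3-3A and H3-3B) did not pass. At the threshold of 0.05 on the adjusted p, 15.5% of all 16961 genes tested passed as higher and 16.9% as lower, and against this background 2 of 8 in each direction is no result about the variants as a group. The median log2 fold change of the 8 was 0.01, against 0.02 over all genes. The ninth member, MACROH2A2, was at 0 in every library and was not tested.

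H2AZ1 and H2AZ2 encode the near-identical forms of H2A.Z, the variant of nucleosomes flanking active promoters and enhancers. H2AZ1 (ENSG00000164032, chromosome 4, 99948088 to 99950275) stood at 313, 291 and 287 CPM in the shCONTROL libraries and at 253, 241 and 221 CPM in the shBCLAF1 libraries. All 3 knock-down libraries lay below all 3 controls. The level fell to 80.6% of the control (log2 fold change -0.31, SE 0.063, adjusted p = 0.0120).

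H2AZ2 (ENSG00000105968, chromosome 7, 44826889 to 44848126) stood at 182, 177 and 182 CPM in shCONTROL and at 239, 231 and 230.0 CPM in shBCLAF1. The groups were apart here too, in the opposite direction to H2AZ1, and each was tight. The rise to 130% of the control measured 0.37 on the log2 scale (SE 0.033, adjusted p = 6.55e-04).

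Because both genes encode H2A.Z, their balance within each library was also compared. The ratio of H2AZ1 to H2AZ2 counts was 1.72, 1.64 and 1.58 in shCONTROL and 1.06, 1.05 and 0.959 in shBCLAF1. The shBCLAF1 ratios all lay below the shCONTROL ratios, and the geometric mean went from 1.64 to 1.02. This 1.61-fold lower ratio, -0.69 on the log2 scale, had an exact two-sided permutation p of 0.1, the smallest that 3 against 3 allows, and an adjusted p of 0.4 over the 4 ratio tests made. The ratio follows from the fold changes of the same genes and is not separate evidence. Added together, the levels of H2AZ1 and H2AZ2 were 477 ± 15.2 CPM in the controls and 472 ± 20.6 CPM after knock-down (SD, n = 3 for each). The group means of this sum differed by less than the SD between replicates, and the sum was not tested. It is not scaled for mRNA length, so it does not give the amount or makeup of H2A.Z mRNA.

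**Figure D2:**
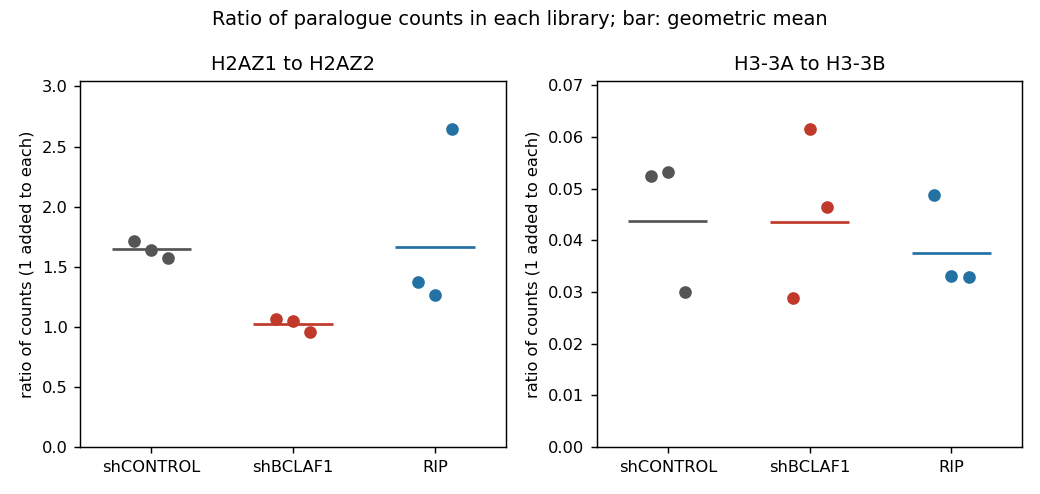
Ratio of the counts of 2 paralogues in each library (points, y axis, 1 count added to each) with the geometric mean of the group (bars), for H2AZ1 to H2AZ2 and for H3-3A to H3-3B. The H2AZ1 to H2AZ2 ratio lay at 1.58 to 1.72 in shCONTROL and 0.959 to 1.06 in shBCLAF1, while the H3-3A to H3-3B ratios overlapped between all groups.

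H2AJ encodes an H2A variant that differs from canonical H2A mainly at its C-terminus and has been linked to senescent cells. H2AJ (ENSG00000246705, chromosome 12, 14774405 to 14778002) was scarce, at 8.07, 9.505 and 9.76 CPM in shCONTROL and 13.9, 12.3 and 17.5 CPM in shBCLAF1. Its lowest knock-down library still lay above its highest control, with 285 to 351 counts in shCONTROL and 467 to 640 in shBCLAF1. The rise to 160% of the control equalled 0.68 on the log2 scale (SE 0.152, adjusted p = 0.0180), and without the shCONTROL replicate 1 library it was 0.61 with an adjusted p of 0.0588.

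H2AX is the variant phosphorylated around DNA double-strand breaks, and its gene lies within the span of DPAGT1. H2AX (ENSG00000188486, chromosome 11, 119093874 to 119095465) ranged from 154 to 177 CPM in shCONTROL and from 153 to 172 CPM in shBCLAF1. The groups overlapped, and the log2 fold change was -0.07 (SE 0.072, adjusted p = 0.537). DPAGT1 itself had 439 to 892 counts in the RNA-seq libraries against 5202 to 6354 for H2AX.

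The macroH2A variants carry a large globular domain and mark silenced chromatin. MACROH2A1 (ENSG00000113648, chromosome 5, 135334381 to 135399887) stood at 742 to 759.8 CPM in shCONTROL and 661 to 740.0 CPM in shBCLAF1. All knock-down libraries lay below the controls by a small margin, and the log2 fold change of -0.07 did not pass (SE 0.051, adjusted p = 0.327). MACROH2A2 (ENSG00000099284, chromosome 10, 70052846 to 70112282) had 0 counts in all 9 libraries. A count of 0 allows up to 3 counts, or 0.0819 to 0.116 CPM at these depths. That limit covers counting error only, and a 0 here can also be a failed estimate, since 165 genes in the control group, 175 in the knock-down group and 226 in the RIP group stood at 0 in 1 library or more beside at least 100 counts in a replicate.

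H3-3A and H3-3B encode the same protein, H3.3, which is laid down at transcribed genes by HIRA and at repeats by ATRX and DAXX. H3-3B (ENSG00000132475, chromosome 17, 75776434 to 75779779) stood at 342, 333 and 322 CPM in shCONTROL and 365, 348 and 351 CPM in shBCLAF1. The groups did not overlap, but the log2 fold change of 0.10 did not pass (SE 0.038, adjusted p = 0.104). Scaling by library totals alone gave 0.15 with an adjusted p of 0.0175.

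H3-3A (ENSG00000163041, chromosome 1, 226061831 to 226072019) had few counts, 237 to 809 per library. Its levels were 17.9, 17.7 and 9.59 CPM in shCONTROL and 10.5, 21.4 and 16.3 CPM in shBCLAF1. The groups overlapped, and the change was 0.09 on the log2 scale (SE 0.334, adjusted p = 0.861), and the value was -0.17 without the shBCLAF1 replicate 2 library and -0.14 without shCONTROL replicate 3. H3P6, a processed pseudogene of H3-3A, held 281 to 542 counts per library, 55.5% to 136% of the count at H3-3A itself, so the level of H3-3A is uncertain, since counting can split reads between a gene and such a copy. Pseudogenes of the other members took less, at most 5.53% of the count of H2AZ1, 6.97% of that of H2AZ2 and 0.406% of that of H3-3B. The ratio of H3-3A to H3-3B overlapped between shCONTROL (0.0524, 0.0533 and 0.0299) and shBCLAF1 (0.0289, 0.0616 and 0.0463), with an exact two-sided permutation p of 1.

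H1-10 encodes a linker histone that binds DNA between nucleosomes and, unlike the main H1 genes, stands outside the main histone clusters. H1-10 (ENSG00000184897, chromosome 3, 129314771 to 129316286) stood at 81.0, 79.9 and 82.0 CPM in shCONTROL and at 47.5, 45.4 and 59.9 CPM in shBCLAF1. The controls lay close together and every knock-down library lay well below them. The fall to 63.1% of the control, -0.67 on the log2 scale with an SE of 0.106 and an adjusted p of 0.00501, was the largest decrease among the 8 variants tested.

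Of these 4 calls, a fit over all 9 libraries with 1 shared estimate of the spread kept that of H2AJ. In that fit the adjusted p was 0.0536 for H1-10, 0.270 for H2AZ1 and 0.0593 for H2AZ2, at log2 fold changes of -0.67, -0.32 and 0.37. 

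**Figure D3:**
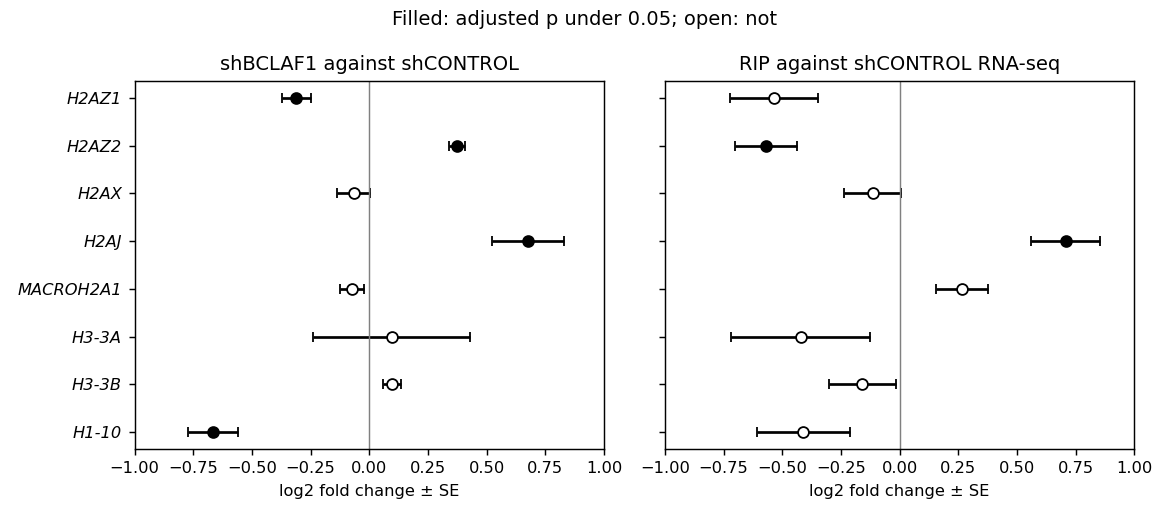
Log2 fold change (x axis, point) with its standard error (bar) for the 8 variants tested, after knock-down (left) and in the RIP against shCONTROL RNA-seq (right), where filled points have an adjusted p under 0.05. After knock-down H2AZ1 (-0.31) and H2AZ2 (0.37) lie on opposite sides of 0, and in the RIP both lie below 0 (-0.54 and -0.57).

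The RIP was compared with RNA-seq of the same shCONTROL cells to ask which variant mRNAs made up more or less of the precipitate than of total RNA. H2AJ took a larger share of the RIP than of total RNA and H2AZ2 a smaller one, and the other 6 of 8 variants tested did not pass. Of all 16727 genes tested, 24.6% passed as higher and 24.7% as lower, and against this background 1 of 8 in each direction is no result about the variants as a group. The median log2 fold change of the 8 was -0.28, against -0.05 over all genes. Scaling by library totals moved the median of all genes to -0.16. This comparison and the knock-down share the shCONTROL libraries.

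H2AJ stood at 13.02, 15.1 and 16.9 CPM in the RIP, above its 8.07 to 9.76 CPM in shCONTROL without overlap. The log2 fold change was 0.71 (SE 0.147, adjusted p = 0.00890), and the adjusted p lay between 7.87e-04 and 0.0436 in the 15 alternative fits. Against both RNA-seq groups together the value was 0.38, and under the stricter rule of a change of at least 1 H2AJ was not called. BCLAF1 mRNA, for scale, changed by 1.74 on the log2 scale.

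H2AZ2 stood at 137, 129 and 101 CPM in the RIP, below its 177 to 182 CPM in shCONTROL in every library. The log2 fold change was -0.57 (SE 0.131, adjusted p = 0.0133). Without the shCONTROL replicate 1 library the adjusted p was 0.0507, and without shCONTROL replicate 3 it was 0.0508, at log2 fold changes of -0.56 in both.

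H2AZ1 stood at 188, 163 and 266 CPM in the RIP, against 287 to 313 CPM in shCONTROL. All RIP libraries lay below the controls, but the third lay far nearer to them, and the log2 fold change of -0.54 (SE 0.186) missed the threshold at an adjusted p of 0.0556. Without RIP replicate 3 it was -0.76 with an adjusted p of 0.00304. It passed in 4 of 15 alternatives, among them scaling by library totals (adjusted p = 0.0314) and DESeq2 (0.0308).

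The same RIP library was the highest of its group for H1-10, H3-3B and MACROH2A1 and the lowest for H2AZ2. H1-10 stood at 44.7, 60.7 and 78.2 CPM in the RIP, a change of -0.41 on the log2 scale (SE 0.197, adjusted p = 0.136). Leaving out RIP replicate 3 gave -0.62 with an adjusted p of 0.0234, and against both RNA-seq groups together the value was -0.07. H3-3B stood at 281, 254 and 362 CPM, so that the RIP overlapped its controls on account of that library. Its log2 fold change was -0.16 (adjusted p = 0.391), and -0.31 without RIP replicate 3 (adjusted p = 0.0244).

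MACROH2A1 was higher in every RIP library, at 838, 860.2 and 1013 CPM, than in any control, where it reached 759.8 CPM. The log2 fold change of 0.27 did not pass (SE 0.110, adjusted p = 0.0918). It passed with DESeq2 (0.0300), in the fit over all 9 libraries (0.0396) and against both RNA-seq groups (0.0105). H2AX (136 to 172 CPM in the RIP) and H3-3A (8.38 to 13.7 CPM) overlapped their controls, with log2 fold changes of -0.11 (adjusted p = 0.470) and -0.42 (adjusted p = 0.284). The H3-3A value was -0.66 (adjusted p = 0.0797) without shCONTROL replicate 3, and without shCONTROL replicate 1 or RIP replicate 2 it was -0.27 and -0.25.

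The balance of the H2A.Z pair in the RIP was 1.37, 1.27 and 2.65, which spanned the shCONTROL ratios of 1.58 to 1.72. Replicates 1 and 2 lay below the controls and replicate 3 above them, and the exact two-sided permutation p was 1. The ratio of H3-3A to H3-3B was 0.0488, 0.0331 and 0.0328 in the RIP, overlapping its controls (exact two-sided permutation p = 0.8).

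The clustered histones are given beside the variants. After knock-down 43 of 51 tested were lower and 0 higher (median -0.61 on the log2 scale), and in the RIP 48 of 51 were lower and 0 higher, with a median of -2.13. Of all genes tested, 16.9% were lower and 15.5% higher after knock-down, and 24.7% lower and 24.6% higher in the RIP. In the fit over all 9 libraries 15 clustered histones were lower after knock-down. Their summed level, without TMM scaling, was 12938 to 13524 CPM in the controls, 8995 to 9544 after knock-down and 2659 to 4327 in the RIP. Their part in the changes of H1-10 and H2AZ1 was not tested. Of 24 DNA replication genes, 1 was higher and 16 lower after knock-down, or 10 lower over all 9 libraries. In the RIP 3 of these 24 were higher and 15 lower, with a median of -0.70. The summed level of these genes, likewise without TMM scaling, was 4123 to 4472 CPM in shCONTROL and 3348 to 3389 in shBCLAF1. In these bulk libraries fewer cells in S phase and less RNA per cell cannot be told apart.

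Among other histone variants outside the clusters, 12 of 15 genes in the table, many of them germline genes, were at 0 in all libraries. CENPA, the H3 variant of centromeres, had a log2 fold change of 0.24 after knock-down (adjusted p = 0.0274) and -0.04 in the RIP (adjusted p = 0.836). Its knock-down call was lost in the fit over all 9 libraries and when shCONTROL replicate 2 or 3, or shBCLAF1 replicate 1 or 2, was left out. H3-5 did not pass in either.

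**Figure D4:**
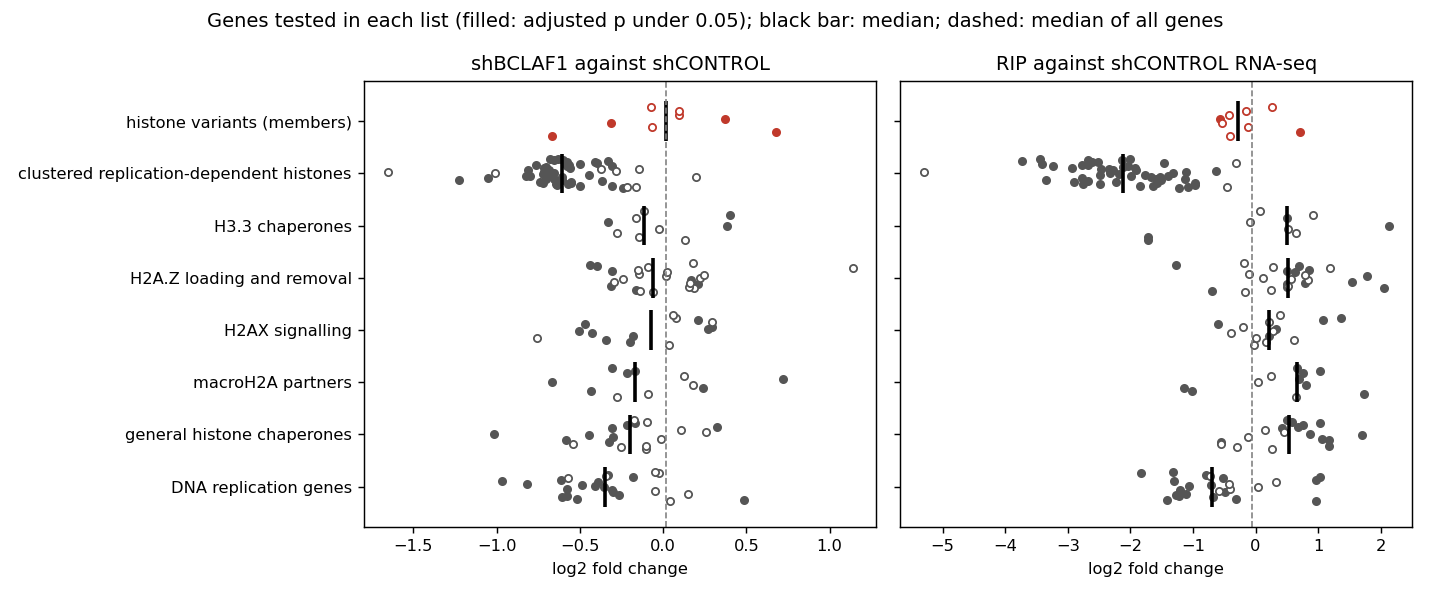
Log2 fold change of each tested gene (x axis, points, filled where the adjusted p was under 0.05) by gene list, after knock-down (left) and in the RIP (right), with each list's median (black bar) and the median of all genes tested (dashed). The variants (red) lie on both sides of 0 in both panels, whereas the clustered histones have medians of -0.61 and -2.13.

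The genes that deposit, remove or read these variants were counted in the same fits, to be read against the 15.5% of all genes higher and 16.9% lower after knock-down, and 24.6% and 24.7% in the RIP. After knock-down, of 23 genes for loading and removal of H2A.Z, 2 were higher and 5 lower, with a median of -0.06. The higher count was 5 with library totals or DESeq2 and 1 without shCONTROL replicate 2 or 3 or shBCLAF1 replicate 1 or 2. EP400, an ATPase that exchanges H2A.Z into chromatin, had a log2 fold change of -0.31 (adjusted p = 9.06e-04), RUVBL1, a helicase subunit of the same complexes, -0.31 (adjusted p = 0.00423), and YEATS4, an acetyl-lysine reader in them, -0.44 (adjusted p = 0.00589). In the RIP 10 of the 23 were higher and 2 lower, with a median of 0.52. BRD8, KAT5 and ING3, subunits of the acetyltransferase complex that holds EP400, had log2 fold changes of 2.05, 1.79 and 1.54. Of the 3 genes named for the knock-down, RUVBL1 was higher in the RIP at 0.50, YEATS4 was lower at -1.27, and EP400 did not pass.

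Of 9 chaperones of H3.3, 2 were higher and 1 lower after knock-down. DAXX, which delivers H3.3 to repeats, had a log2 fold change of 0.38 (adjusted p = 0.00220), UBN1, a subunit of the HIRA complex, 0.40 (adjusted p = 0.00320), and DEK, an oncoprotein that binds H3.3, -0.33 (adjusted p = 0.00321). In the RIP 2 of these 9 were higher and 2 lower, with 5 higher in DESeq2 and 1 higher without shCONTROL replicate 1 or 2. DAXX stood at 69.4 ± 2.05 CPM (SD, n = 3) in the controls and 306 ± 97.8 CPM (SD, n = 3) in the precipitate, 2.14 higher on the log2 scale (adjusted p = 9.48e-04). ASF1A and ASF1B, which hand over H3 and H4, both had a log2 fold change of -1.72.

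Of 14 genes tested that write, read or erase H2AX phosphorylation, 3 were higher and 6 lower after knock-down, with 1 higher without shCONTROL replicate 3. PRKDC, a kinase of H2AX, had a log2 fold change of -0.47, MDC1, the reader of the phosphorylated form, -0.43, and BAZ1B, which phosphorylates another residue of H2AX, -0.34. In the RIP 4 were higher and 1 lower, with RNF8 at 1.36, RNF168 at 1.08 (both ubiquitin ligases acting downstream of MDC1) and PRKDC at -0.60. The higher count in the RIP was 2 with any shCONTROL library or RIP replicate 1 left out, and 7 without RIP replicate 2. H2AX itself passed in neither comparison.

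Of 11 partners of macroH2A, 2 were higher and 5 lower after knock-down, with PARP1, the poly(ADP-ribose) polymerase inhibited by macroH2A, at a log2 fold change of -0.67, the remodeller HELLS at -0.43 and SSRP1, a subunit of the chaperone FACT, at -0.22. In the RIP 6 were higher and 2 lower, with CHD7 at 1.74, SUPT16H, the other subunit of FACT, at 1.02, and LBR, a receptor of the inner nuclear membrane, at -1.14. Of 18 general histone chaperones, 1 was higher and 8 lower after knock-down, with NPM1 at -1.02, NAP1L1 at -0.58 and NCL at -0.44. In the RIP 11 of the 18 were higher and 1 lower, with NCL at 1.70 and both HJURP and NAP1L1 at 1.18. The macroH2A partners lower after knock-down numbered 2, and the general chaperones 5, without shCONTROL replicate 1 or 3 or shBCLAF1 replicate 2. The macroH2A partners higher after knock-down numbered 1 with any shCONTROL library left out, and 0 without shBCLAF1 replicate 1 or 2. In the RIP 7 general chaperones were higher without shCONTROL replicate 2 or 3. The fit over all 9 libraries left fewer knock-down calls in these lists, with 1 lower for H2A.Z loading, 2 for H2AX signalling, 1 for macroH2A partners and 3 for general chaperones. In that fit 0 genes for H2A.Z loading, 0 chaperones of H3.3 and 0 genes of H2AX signalling were higher. SUPT16H, SSRP1 and ATRX stand in more than 1 of these lists. Every gene given a fold change in these lists of loaders, chaperones, signalling genes and partners had an adjusted p under 0.05 in the fit of its own 6 libraries.

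Over the 9 libraries the variants did not follow a common course. Pearson's r of log2(CPM + 1) between members ran from -0.94 for H2AZ2 with MACROH2A1 to 0.75 for H2AZ1 with H3-3B, and was 0.27 for H2AZ1 with H2AZ2. These values describe 9 libraries that share 3 groups and their depth. Among 11827 genes compared, the one most like H2AZ1 was BTF3 (r = 0.98), which stood at 273 ± 6.15 CPM in the controls, 229 ± 15.3 after knock-down and 197 ± 37.1 in the RIP (SD, n = 3 for each value). For H2AZ2 it was ELF3-AS1 (0.996), for H2AJ SOCS1 (0.98), for H1-10 RPL13 (0.96), for H3-3B ELOB (0.96), for MACROH2A1 the pseudogene XRCC6P1 (0.99), for H2AX GCN1 (0.89) and for H3-3A the pseudogene CHORDC1P4 (0.86). SOCS1 stood at 13.6 ± 1.27, 23.7 ± 2.90 and 25.8 ± 3.71 CPM in the shCONTROL, shBCLAF1 and RIP libraries. Since SOCS1 was picked by its r with H2AJ over these same libraries, their shared order of groups is not separate evidence.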

How the data were processed

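RNA-seq (total RNA with ribosomal RNA removed) and RNA precipitated with BCLAF1 were measured in MOLM-13 cells, 3 libraries per group. The authors deposited 1 table of estimated counts (expected counts) per gene, not normalized. STAR 2.7.11b, StringTie 2.2.3 and hg38 appear in the submitters' processing notes. The annotation, the counting settings and the use of strand in counting are not given in the sources used here. The values were whole numbers. The table's 1 entry naming no gene, with 2.18% to 3.75% of the counts in 8 libraries, was left out.

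The members and gene lists were chosen with earlier results of these data known. Each comparison was fitted on its own 6 libraries with edgeR 4.0.16 (default filter on low counts, TMM scaling, quasi-likelihood F-test, prior count 2) in R 4.3.3, with Benjamini-Hochberg adjustment over all genes tested and a threshold of 0.05. SEs came from the coefficient and its F statistic, and the fit was tested on simulated counts. Ratios of paralogues used 1 added count and an exact permutation test, adjusted over 4 tests where 6 were planned, since MACROH2A2 was at 0. Totals were 25819144 to 36635268 counts per library.

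Named genes were all members, up to 3 tested genes per list with the smallest adjusted p in each comparison, and, for each member, the gene with the highest Pearson r among named genes above 0 in all libraries with a mean of at least 50 counts. Promoter windows and gene positions came from RefSeq tables (GRCh38.p14), in which all 9 members were found by symbol. The alternatives were other scalings, DESeq2 1.42.0, no filter, all 9 libraries, a replicate block, a smaller prior count, a minimum change, both RNA-seq groups as the reference, each replicate left out and, chosen after seeing the data, pseudogene counts added. Protein sequences were not used here. Some listed genes are not reported here.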

Additional observations from a re-analysis of the deposited data

How the results depend on the processing

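After knock-down the counts of 2 variants higher and 2 lower became 1 and 0 in the fit over all 9 libraries, and 0 and 0 when a change of at least 1 on the log2 scale was required. Leaving out each library gave 1 to 2 higher. In the RIP the count of 1 higher became 2 with DESeq2, over all 9 libraries and against both RNA-seq groups, and 0 with the minimum change. The count of 1 lower became 3 with library totals, 2 with DESeq2 and over all 9 libraries, 0 with the minimum change, and 0 (without shCONTROL replicate 1 or 3) to 4 (without RIP replicate 3) with each library left out. The RIP difference in the log2 ratio of H2AZ1 to H2AZ2, 0.02 as reported, was -0.027 with pseudogene counts added and -0.32 to 0.21 with each library left out. The knock-down value of H3-3A ran from -0.17 (without shBCLAF1 replicate 2) to 0.32, and the log2 ratio of H3-3A to H3-3B from -0.28 to 0.29. The cause of these shifts was not tested. All other directions of the 8 variants and BCLAF1 held.

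Genes higher and lower after knock-down numbered 1129 and 1318 in the fit over all 9 libraries against 2625 and 2859 as reported, and 301 and 380 with the minimum change. In the RIP the minimum change left 1846 and 2253 of 4107 and 4124. Library totals moved the split of RIP calls to 3403 higher and 4529 lower. The labels do not state that replicate numbers pair the libraries. Between libraries of the same number, correlations of deviations were 0.0235, 0.1001 and 0.0376 in the knock-down. There each shCONTROL library correlated best with the shBCLAF1 library of its own number. In the RIP the correlations were -0.0286 to 0.0224, and only shCONTROL replicate 3 correlated best with its own number. These small values do not settle whether the numbers pair libraries. With a replicate block the knock-down calls numbered 2271 and 2538 and the RIP calls 3244 and 3262, and the counts of variants called were the same, with H2AZ1 at -0.31 after knock-down (adjusted p = 0.0124). Of the variants tested, H2AJ and H3-3A had the fewest counts, at 237 to 809 per library.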
